A study of Homo sapiens with 12 samples.

Results

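The nuclear genes for the subunits of mitochondrial complexes I to IV were followed through precision run-on sequencing (PRO-seq) of Mia PaCa-2 cells, a human pancreatic carcinoma line. PRO-seq sequences the RNA that engaged RNA polymerases extend in isolated nuclei, so a level here is a density of transcribing polymerase over a gene and not an amount of mRNA. The members were the rows whose symbols began with NDUFA, NDUFB, NDUFC, NDUFS or NDUFV and a number, with UQCR or with COX4 to COX8, together with SDHA, SDHB, SDHC and SDHD. Of 24926 symbols found in all 12 gene tables, 69 met this rule, and 68 of these encode subunits: 36 of complex I, 4 of complex II, 9 of complex III and 19 of complex IV. The other row was the pseudogene UQCRBP1. A further 4 rows, NDUFA6-DT, NDUFB2-AS1, NDUFV2-AS1 and the readthrough transcript NDUFC2-KCTD14, matched in 8 of the tables only, encode no subunit and gave no call in any response to Dox.

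The series held 12 libraries from 3 stable lines. Each line carried a Tet-on lentiviral transgene for MED30, for MYC with a 3xHA tag, or for both (MYC&MED30), and was sequenced without doxycycline (Dox) and with 0.5 μg/ml Dox for 1 day, with 2 libraries a group. The text of the study's results gives another duration of induction than its methods. No line without a transgene was given Dox, so the action of Dox and that of the transgene cannot be told apart, which bears on these genes because Dox belongs to the tetracyclines, known to slow the ribosomes of mitochondria. Since no source says that the replicates were grown as separate cultures, the p-values reflect the spread between these libraries alone.

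Complex I (NADH dehydrogenase) passes electrons from NADH to ubiquinone, complex II (succinate dehydrogenase) passes them from succinate, complex III (the cytochrome bc1 complex) hands them on to cytochrome c, and complex IV (cytochrome c oxidase) delivers them to oxygen. Complexes I, III and IV pump protons and are built from subunits of both genomes, whereas all subunits of complex II are nuclear. The genes encoded in mitochondria are not analysed here. NDUFAF proteins assemble complex I without staying in it, and MYC is known for raising many nuclear genes of mitochondria in proliferating cells.

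Raw counts were given for the lines labelled MYC and MYC&MED30, with totals of 20616713 to 29881914 per library except in MYC&MED30 control 2, which held 1257499. In that shallow library the median subunit gene had 30.5 counts and 10 of 68 had under 10. The MED30 tables held scaled, rounded values of unknown depth. Levels are CPM (counts relative to the TMM-scaled size of the library), for MED30 computed from the scaled values. A gene was called at a Benjamini-Hochberg adjusted p under 0.05 over all genes tested, with edgeR's quasi-likelihood test for the counts and limma for the MED30 values. The carcinoma markers KRT8 (130 to 256 CPM), KRT18, KRT19 and VIM were present in all libraries, and markers of blood, endothelium, fibroblasts, islets, acini and hepatocytes did not exceed 3.19 CPM.

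The induced genes did not follow every label. MED30, a subunit of the Mediator complex, went from 32.9 and 32.1 CPM to 815 and 620 CPM in the libraries labelled MYC, from 53.6 and 58.1 CPM to 1480 and 1530 CPM in MYC&MED30, and from 28.9 and 27.3 CPM to 626 and 609 CPM in MED30. MYC fell from 398 and 387 CPM to 269 and 261 CPM in the libraries labelled MYC, by 0.57 on the log2 scale, fell in MED30 by 0.56, and rose in MYC&MED30 alone, from 279 and 300 CPM to 659 and 623 CPM. Over 5862 well covered genes, the log2 ratio of each MED30 library to the library labelled MYC of the same number and treatment had a spread of 0.041 to 0.053, below the 0.0632 and 0.146 between the replicates labelled MYC. The responses in the libraries labelled MYC and in MED30 are therefore given side by side and not counted as separate evidence of each other. MYC&MED30 was the line in which both genes rose.

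In every comparison with Dox most subunit genes did not pass the test, and those that did were single genes of complexes I, III and IV. In the libraries labelled MYC, 7 of 65 tested subunit genes were called, 3 higher and 4 lower, where 13.0% of all 19318 genes tested were called, 5.32% higher and 7.71% lower. In MYC&MED30, 2 of 65 were called, both higher, against 6.74% of all genes, 3.65% higher and 3.09% lower. In MED30, 5 of 63 were called, 2 higher and 3 lower, against 16.0% of 14780 genes, 7.37% higher and 8.63% lower. UQCRFS1 of complex III was the subunit gene called in all 3 comparisons, each time higher.

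The medians of the subunit genes lay close to 0 in the 3 responses. The median log2 fold change was -0.06 in the libraries labelled MYC, 0.02 in MYC&MED30 and -0.02 in MED30, beside 0.01, 0.02 and 0.01 over all genes tested. When TMM was replaced by library size alone, the medians of all genes moved to 0.16, 0.07 and 0.11 and that of the subunit genes turned positive in the libraries labelled MYC, to 0.09, and in MED30, to 0.08. The fitted fold change was smaller than 1.5 in either direction for 61 of 65 genes in the libraries labelled MYC, 64 of 65 in MYC&MED30 and 61 of 63 in MED30, with median standard errors of 0.12, 0.13 and 0.12 on the log2 scale. The levels with and without Dox did not overlap for 36 of 65 genes in the libraries labelled MYC, 23 of 65 in MYC&MED30 and 31 of 63 in MED30, where the shares over all genes were 55.9%, 43.9% and 61.0%.

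**Figure D1:**
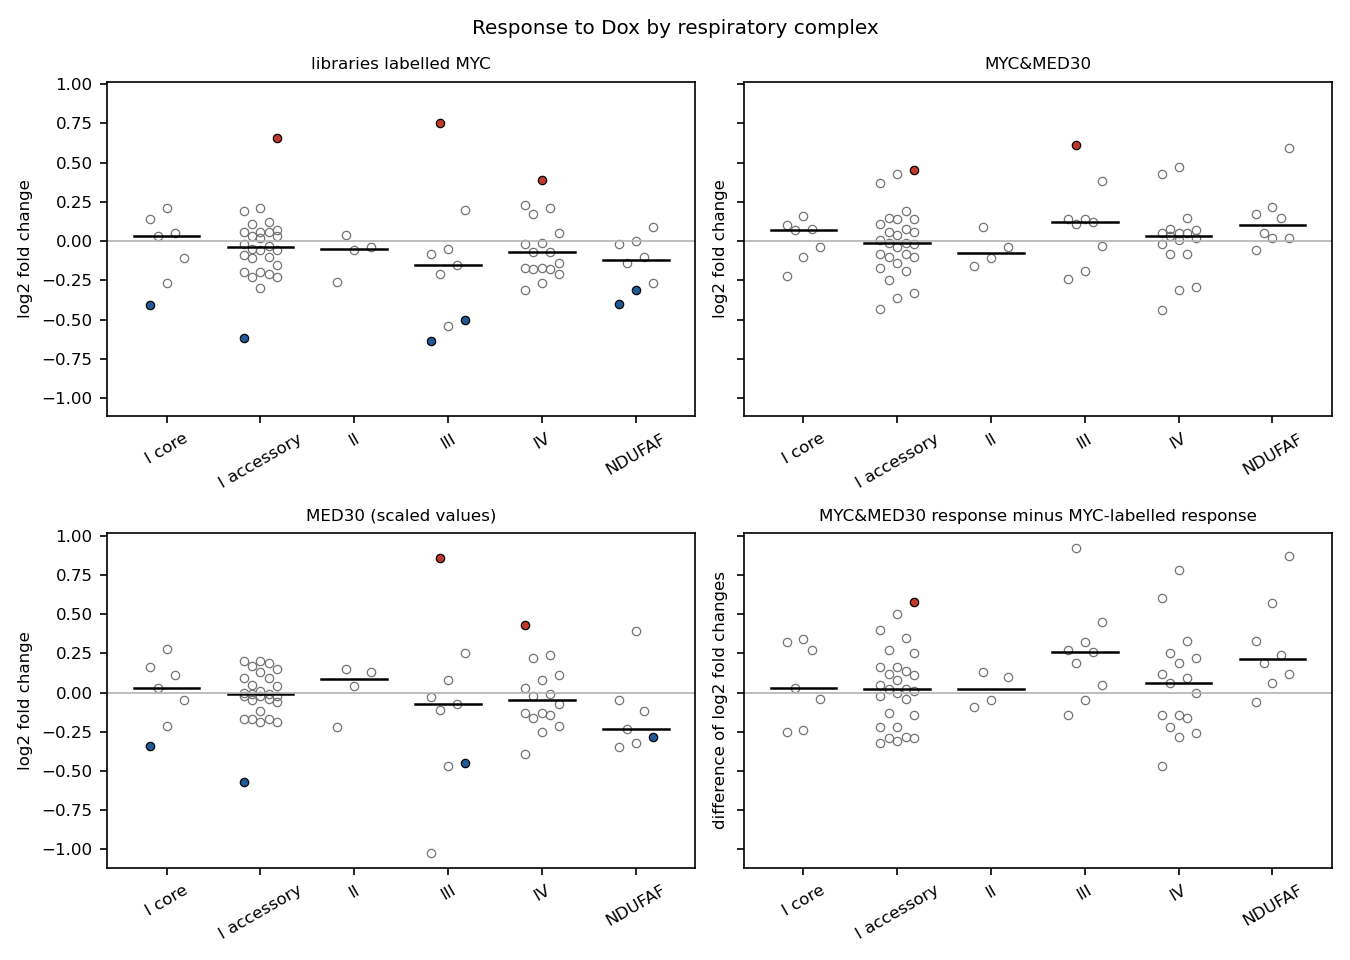
Log2 fold change of each tested gene with Dox against without (the lower right panel gives the difference of 2 such responses), by complex and for the NDUFAF assembly factors. Each circle is a gene, bars are medians, filled circles passed an adjusted p under 0.05 (red higher, blue lower); most circles are open and lie near 0, and UQCRFS1 is the filled red circle of complex III in the 3 response panels.

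Summed over all 68 genes, the levels were 2134 and 2149 CPM without Dox and 1994 and 1981 CPM with Dox in the libraries labelled MYC. In MYC&MED30 the sums were 2583 and 2268 CPM without and 2489 and 2527 CPM with Dox. In MED30 they were 2094 and 2090 CPM without and 1958 and 2065 CPM with Dox. On this scale the sums were lower with Dox in the libraries labelled MYC and in MED30, and the groups overlapped in MYC&MED30. That direction rested on TMM. With library size alone the sums were 1992 and 1987 CPM without and 1991 and 2100 CPM with Dox in the libraries labelled MYC, and 2023 and 2017 CPM without and 2005 and 2163 CPM with Dox in MED30, so that the groups overlapped in both. In MYC&MED30 they were then 2493 and 2453 CPM without and 2578 and 2558 CPM with Dox, higher with Dox.

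Complex III held the widest responses. UQCRFS1 (chr19:29205320-29213151, minus strand, GRCh38) encodes the Rieske iron-sulfur protein, the subunit that carries electrons to cytochrome c1. Its levels were 31.2 and 32.0 CPM without and 57.5 and 49.0 CPM with Dox in the libraries labelled MYC. In MYC&MED30 they were 43.3 and 44.9 CPM without and 63.0 and 70.0 CPM with Dox. In MED30 they were 31.1 and 30.2 CPM without and 57.8 and 53.3 CPM with Dox. In each line both libraries with Dox were above both without, as the plot of levels by library shows. The MED30 values are not separate evidence from those of the libraries labelled MYC. The log2 fold change was 0.75 ± 0.10 (SE, adjusted p = 4.25e-06, edgeR) in the libraries labelled MYC, 0.61 ± 0.11 (adjusted p = 0.000724, edgeR) in MYC&MED30 and 0.86 ± 0.09 (adjusted p = 0.000437, limma) in MED30. The first and second of these differed by -0.14 ± 0.15 (adjusted p = 0.769, edgeR). When MYC&MED30 control 1 was left out, so that the shallow library was the lone control, the value in that line was 0.59 and its adjusted p 0.194.

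UQCRH (chr1:46303698-46316776, plus strand) encodes the hinge protein, an acidic subunit next to cytochrome c1. It fell from 116 and 120 CPM to 84.1 and 83.5 CPM in the libraries labelled MYC, by 0.50 ± 0.09 on the log2 scale (adjusted p = 0.000186, edgeR). In MED30 it fell from 119 and 123 CPM to 87.6 and 89.2 CPM, by 0.45 ± 0.07 (adjusted p = 0.00282, limma), a call lost without control 2 (adjusted p = 0.0577). In MYC&MED30 it was at 87.6 and 89.0 CPM without and 77.2 and 72.0 CPM with Dox, a log2 fold change of -0.24 ± 0.10 that did not pass (adjusted p = 0.158, edgeR). The libraries with Dox were below those without in each line, and the responses of the lines labelled MYC and MYC&MED30 did not differ by test (0.26 ± 0.13, adjusted p = 0.422, edgeR).

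UQCRHL is a near copy of UQCRH on the same chromosome and could share reads with it, so its value is uncertain. It was called lower in the libraries labelled MYC at a level of 8.05 and 9.27 CPM without and 6.66 and 4.55 CPM with Dox (log2 fold change -0.64 ± 0.20, adjusted p = 0.0366, edgeR), a call lost without either control, without Dox replicate 2 (-0.36, adjusted p = 0.385), with library size alone (-0.49, adjusted p = 0.107) and with DESeq2 (adjusted p = 0.172). With edgeR it was also lost with upper quartile scaling (-0.59, adjusted p = 0.0536) and on the 4 libraries of that line alone (-0.62, adjusted p = 0.0731). In MED30 UQCRHL was at 3.90 and 5.16 CPM without and 3.77 and 1.17 CPM with Dox, a log2 fold change of -1.02 ± 0.43 that did not pass (adjusted p = 0.136, limma). It passed there with a replicate block (adjusted p = 0.00293), without control 1 (-1.22, adjusted p = 0.0116) and without Dox replicate 1 (-1.81, adjusted p = 7.57e-09). The other 6 genes of the complex were called in no response to Dox. UQCRC1 and UQCRC2 encode the large core proteins and moved by -0.21 and -0.08 in the libraries labelled MYC and by 0.11 and -0.03 in MYC&MED30. UQCR10, a small subunit at 1.47 to 4.84 CPM, had log2 fold changes of -0.54 ± 0.26 and 0.38 ± 0.35 in these lines, with an adjusted p of 0.383 for the difference (edgeR).

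Complex I held the gene whose response differed by test between lines. NDUFB10 (chr16:1959538-1961975, plus strand) encodes an accessory subunit of the membrane arm. It fell from 102 and 97.5 CPM to 70.0 and 60.1 CPM in the libraries labelled MYC, by 0.62 ± 0.09 on the log2 scale (adjusted p = 2.13e-05, edgeR). In MYC&MED30 it was at 94.2 and 86.8 CPM without and 89.1 and 90.3 CPM with Dox, where the groups overlapped and the log2 fold change was -0.04 ± 0.10 (adjusted p = 0.889, edgeR). In MED30 it fell from 112 and 108 CPM to 77.9 and 70.1 CPM, by 0.57 ± 0.08 (adjusted p = 0.00177, limma). The MYC&MED30 response exceeded that of the libraries labelled MYC by 0.58 ± 0.14 (adjusted p = 0.0316, edgeR). NDUFB10 was the single call among 65 subunit genes in this difference, where 1.07% of all genes were called, 0.714% with a higher and 0.357% with a lower response in MYC&MED30. Leaving out any of 6 libraries, each replicate of the controls of both lines and of MYC&MED30 with Dox, raised the adjusted p to between 0.0678 and 0.265, while the difference stayed between 0.54 and 0.69, and with a replicate block it was 0.59 (adjusted p = 0.0768).

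**Figure D2:**
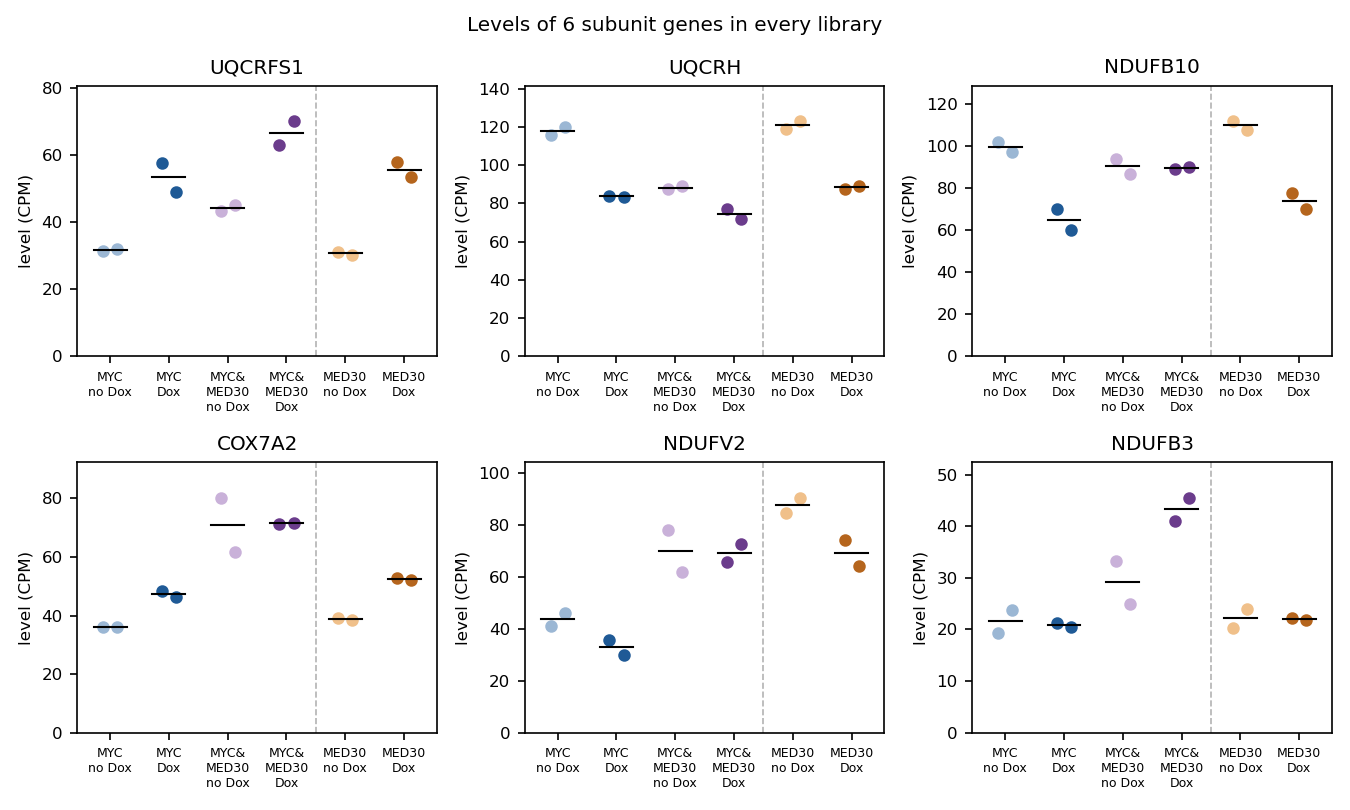
Levels in CPM (linear axes from 0) of 6 subunit genes in every library; points are libraries, bars the mean of 2, and the dashed line sets apart the MED30 values, which were scaled separately. UQCRFS1 is higher with Dox in all 3 lines, whereas NDUFB10 and NDUFV2 are lower with Dox in the libraries labelled MYC and MED30 and overlap in MYC&MED30.

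To show the sequence ahead of the genes with the clearest responses, the 250 bases before the RefSeq start (GRCh38.p14) are printed for UQCRFS1 (chr19:29213152-29213401, minus strand), UQCRH (chr1:46303448-46303697, plus strand) and NDUFB10 (chr16:1959288-1959537, plus strand), and for NDUFS7 (chr19:1383657-1383906, plus strand) as a window that holds the E-box letters. Capitals mark a match on either strand to CACGTG (the E-box that MYC binds with MAX), GCATGCGC (NRF1), CCGGAAGT (ETS factors such as GABP) or AAGATGGC (YY1). Each motif was searched on its own, so matches of different motifs could overlap.
UQCRFS1: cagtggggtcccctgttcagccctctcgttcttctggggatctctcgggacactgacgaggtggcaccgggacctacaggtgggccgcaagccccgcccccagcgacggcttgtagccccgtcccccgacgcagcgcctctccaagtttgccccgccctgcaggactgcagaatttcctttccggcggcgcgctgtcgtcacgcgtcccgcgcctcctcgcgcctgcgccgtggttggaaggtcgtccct
UQCRH: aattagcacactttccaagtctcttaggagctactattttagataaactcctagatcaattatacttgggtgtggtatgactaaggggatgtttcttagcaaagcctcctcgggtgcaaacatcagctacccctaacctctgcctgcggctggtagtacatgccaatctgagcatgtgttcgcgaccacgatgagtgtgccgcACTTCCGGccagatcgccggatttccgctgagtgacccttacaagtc
NDUFB10: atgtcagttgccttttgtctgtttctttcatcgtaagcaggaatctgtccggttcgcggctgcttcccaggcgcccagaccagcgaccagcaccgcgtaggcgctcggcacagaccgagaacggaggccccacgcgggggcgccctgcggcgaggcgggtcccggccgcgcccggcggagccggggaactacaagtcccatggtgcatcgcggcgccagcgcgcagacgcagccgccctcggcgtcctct
NDUFS7: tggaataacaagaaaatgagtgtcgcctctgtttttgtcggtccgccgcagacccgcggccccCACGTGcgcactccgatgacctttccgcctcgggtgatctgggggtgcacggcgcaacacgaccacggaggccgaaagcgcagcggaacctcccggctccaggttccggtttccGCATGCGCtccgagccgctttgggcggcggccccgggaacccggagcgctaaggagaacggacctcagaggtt

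The windows of UQCRFS1 and NDUFB10 held none of the 4 motifs, and that of UQCRH held the ETS letters on the minus strand, 40 to 47 bases before the start. That of NDUFS7 held the E-box 182 to 187 bases and the NRF1 letters 66 to 73 bases before it. Of the 68 subunit genes, 57 had a RefSeq window. The E-box letters were in 4 of these (7.02%) and in 6.49% of 27305 windows of all genes. The 4 genes were NDUFA7, NDUFA11 and NDUFS7 of complex I and UQCR11 of complex III, and none was called in a response to Dox. Over all genes, 13.0%, 6.74% and 16.0% were called in the libraries labelled MYC, MYC&MED30 and MED30. With 4 genes, the lack of calls does not set them apart from all genes. The ETS letters were in 8 of 57 windows (14.0%) against 3.64% of all, the NRF1 letters also in 8 of 57 (14.0%) against 2.81%, and the YY1 letters in 0 of 57 against 1.37%. A match is a run of letters and not a shown binding site.

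Of the 7 nuclear core subunits of complex I, which carry its flavin and iron-sulfur centres, NDUFV2 was called. NDUFV2, a subunit of the NADH-oxidising module, went from 41.2 and 46.2 CPM to 35.6 and 30.1 CPM in the libraries labelled MYC and fell by 0.41 ± 0.11 on the log2 scale (adjusted p = 0.00905, edgeR). In MED30 it fell from 84.7 and 90.5 CPM to 74.3 and 64.1 CPM, by 0.34 ± 0.09 (adjusted p = 0.0311, limma). With library size alone this call in MED30 was lost (-0.24, adjusted p = 0.0799, limma). In MYC&MED30 the groups overlapped, at 77.9 and 61.8 CPM without and 65.6 and 72.6 CPM with Dox. Its call in the libraries labelled MYC was lost without control 2 (adjusted p = 0.26) or Dox replicate 2 (adjusted p = 0.105), and its call in MED30 without control 1 (adjusted p = 0.105) or control 2 (adjusted p = 0.311). NDUFV2 lies opposite NDUFV2-AS1, and the MED30 tables gave it 2.0 times the level of the count tables in the controls, so reads of its neighbours may be divided differently in them.

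NDUFS1, the largest core subunit, came nearest to the threshold of the other core genes, with a log2 fold change of -0.27 ± 0.10 in the libraries labelled MYC (adjusted p = 0.0727, edgeR), 0.07 ± 0.11 in MYC&MED30 and -0.21 ± 0.07 in MED30 (adjusted p = 0.0871, limma). The flavoprotein gene NDUFV1 had log2 fold changes of 0.21, -0.04 and 0.28 in the same order. NDUFS3, NDUFS7 and NDUFS8 stayed between -0.22 and 0.16 in all 3 responses. None of these 5 genes passed the test in any response.

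Among the 28 tested accessory subunits of complex I, NDUFA3 rose in the libraries labelled MYC, from 8.54 and 6.56 CPM to 10.6 and 13.3 CPM (log2 fold change 0.66 ± 0.17, adjusted p = 0.00835, edgeR). That call was lost without control 2 (adjusted p = 0.301) or Dox replicate 2 (adjusted p = 0.0855). NDUFA3 lies opposite TFPT and was at 0.323 to 1.32 CPM in the MED30 tables, where it was not tested. NDUFB3, a small membrane-arm subunit, rose in MYC&MED30, from 33.2 and 25.0 CPM to 41.0 and 45.5 CPM (log2 fold change 0.45 ± 0.13, adjusted p = 0.0305, edgeR). Its log2 fold changes were -0.05 in the libraries labelled MYC and 0.00 in MED30, and the difference from the former was 0.50 ± 0.18 (adjusted p = 0.198, edgeR). The call of NDUFB3 was lost without MYC&MED30 control 1 (adjusted p = 0.152), control 2 (adjusted p = 0.0934) or Dox replicate 2 (adjusted p = 0.221), and with DESeq2 (adjusted p = 0.0937).

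Complex II gave no call with edgeR or DESeq2 in the count tables or with limma in MED30. Of its 4 genes, 1, SDHA, had an unadjusted p under 0.05 in the libraries labelled MYC (edgeR) and in MED30 (limma). Over all genes, 4950 of 19318 and 4715 of 14780 had such a p in these 2 comparisons. SDHA, the flavoprotein that oxidises succinate, was at 99.5 and 98.5 CPM without and 90.0 and 75.2 CPM with Dox in the libraries labelled MYC (log2 fold change -0.26 ± 0.09, adjusted p = 0.0579, edgeR), -0.16 ± 0.10 on the same scale in MYC&MED30 and -0.22 ± 0.09 in MED30. Its libraries with Dox were below those without in each line. SDHB, the iron-sulfur subunit, and the membrane anchors SDHC and SDHD had log2 fold changes of -0.11 to 0.15 over the 3 responses.

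Complex IV gave 1 call among 17 tested genes in the libraries labelled MYC, 0 of 17 in MYC&MED30 and 1 of 16 in MED30. Over all genes, 13.0%, 6.74% and 16.0% were called in the same order. In MYC&MED30, 4 of the 17 had an unadjusted p under 0.05 (edgeR), as did 3731 of all 19318 genes. COX7A2, the isoform of subunit VIIa found in most tissues, rose from 36.2 CPM in both controls to 48.4 and 46.4 CPM in the libraries labelled MYC (log2 fold change 0.39 ± 0.10, adjusted p = 0.008, edgeR). In MED30 it rose from 39.0 and 38.5 CPM to 52.8 and 52.1 CPM (0.43 ± 0.08, adjusted p = 0.00802, limma). In MYC&MED30 the controls already stood at 80.2 and 61.8 CPM and the libraries with Dox at 71.4 and 71.6 CPM, between them. The difference of -0.47 ± 0.14 between the responses did not pass with TMM (adjusted p = 0.121, edgeR) and passed with upper quartile scaling (-0.51, adjusted p = 0.0342) and with library size alone (-0.57, adjusted p = 0.0174). The call was lost in the libraries labelled MYC without control 1 (adjusted p = 0.139) or control 2 (adjusted p = 0.145), and in MED30 likewise without control 1 (adjusted p = 0.086) or control 2 (adjusted p = 0.117).

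The isoform pairs of complex IV gave no other call, and some of them differed in level. Per kilobase of gene, COX4I1 stood at 4.69 CPM and its oxygen-regulated isoform COX4I2 at 0.349 CPM in the controls labelled MYC. COX7A2 and the muscle isoform COX7A1 were close in these controls, at 2.87 and 2.75 CPM per kilobase, and at 5.62 and 2.89 in the controls of MYC&MED30. The closeness rests on the division by length, as their levels were 36.2 and 4.19 CPM over spans of 12624 and 1526 bases. COX6B2, the isoform of testis, was at 5.14 CPM and COX6B1 at 1.62 CPM per kilobase in the controls labelled MYC, and at 2.15 and 1.65 in those of MYC&MED30. COX6B2 overlaps another gene model on the same strand, and the part of that overlap in its level was not tested. The muscle isoform COX6A2 did not exceed 0.0437 CPM and COX8C was listed at 0 in all 12 libraries. NDUFA4, once counted to complex I and now to complex IV, had log2 fold changes of -0.02, -0.31 and 0.03 in the libraries labelled MYC, MYC&MED30 and MED30, and its paralog NDUFA4L2 had -0.17, 0.43 and -0.14. NDUFA4L2 came close to the threshold in MYC&MED30 (adjusted p = 0.0594, edgeR), at 26.7 and 17.6 CPM without and 33.5 and 34.4 CPM with Dox.

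**Figure D3:**
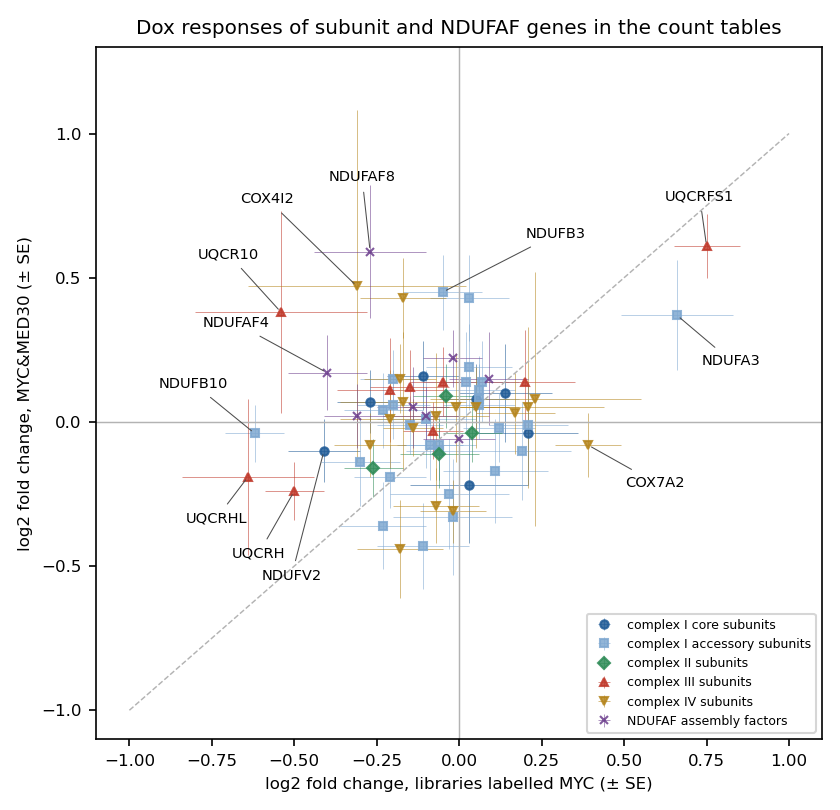
Log2 fold change with Dox in the libraries labelled MYC (x axis) and in MYC&MED30 (y axis) for 65 subunit genes and 8 NDUFAF genes, with SE bars; the dashed line marks equal responses. UQCRFS1 lies near that line at 0.75 and 0.61, whereas NDUFB10 lies at -0.62 and -0.04.

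MED30 and MYC lie on chromosome 8, as do the subunit genes NDUFB9, UQCRB and COX6C. These 3 genes were called in no response, with log2 fold changes of -0.23, -0.15 and -0.07 in the libraries labelled MYC and -0.36, 0.12 and -0.29 in MYC&MED30.

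The NDUFAF assembly factors were compared with the structural subunits by their counts and medians, without a test between the lists. In the libraries labelled MYC, 2 of 8 fell and none rose, where 7.71% of all genes fell, and the median log2 fold change was -0.12 beside -0.06 for the subunit genes. In MYC&MED30, 0 of 8 were called by edgeR or DESeq2, where edgeR called 6.74% of all genes, and the medians were 0.10 and 0.02. By edgeR, 2 of 8 had an unadjusted p under 0.05 there, as did 3731 of all 19318 genes. In MED30, 1 of 7 fell, where 8.63% of all genes fell, and the medians were -0.23 and -0.02. With so few genes, these counts do not set the NDUFAF genes apart from all genes. The median of the NDUFAF genes was thus below that of the subunit genes in the libraries labelled MYC and in MED30 and above it in MYC&MED30.

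NDUFAF2, a paralog of the subunit NDUFA12 that acts late in assembly, went from 147 and 152 CPM to 132 and 109 CPM in the libraries labelled MYC (log2 fold change -0.31 ± 0.10, adjusted p = 0.0389, edgeR). In MED30 it went from 158 and 162 CPM to 143 and 122 CPM (-0.28 ± 0.08, adjusted p = 0.0488, limma), and in MYC&MED30 its groups overlapped at 181 to 218 CPM. The call of NDUFAF2 in MED30 was lost with upper quartile scaling (-0.26, adjusted p = 0.06, limma) and with library size alone (-0.18, adjusted p = 0.132, limma). NDUFAF4, which works with NDUFAF3 early in assembly, went from 16.3 CPM in both controls to 13.0 and 11.8 CPM in the libraries labelled MYC (-0.40 ± 0.12, adjusted p = 0.0274, edgeR). In MYC&MED30 it was at 27.2 and 27.9 CPM without and 30.4 and 31.2 CPM with Dox, and the difference of the responses was 0.57 ± 0.18 (adjusted p = 0.121, edgeR). The calls of NDUFAF2 and NDUFAF4 in the libraries labelled MYC were lost with library size alone (-0.16 and -0.25), with a replicate block, and without control 1, control 2 or Dox replicate 2, and that of NDUFAF4 also with DESeq2 (adjusted p = 0.098). Both were also lost with edgeR on the 4 libraries of that line alone (adjusted p = 0.0811 and 0.066). Without MYC&MED30 Dox replicate 1 or 2, which share the fit, NDUFAF2 had an adjusted p of 0.0837 or 0.083, and its call in MED30 was lost without control 1 (adjusted p = 0.22) or control 2 (adjusted p = 0.348).

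The remaining NDUFAF genes were called in no response. NDUFAF8, the partner of NDUFAF5, had the widest difference between the lines labelled MYC&MED30 and MYC, 0.87 ± 0.29 (adjusted p = 0.159, edgeR), at 2.21 to 11.3 CPM in the count libraries. NDUFAF1, NDUFAF5 and NDUFAF7 had log2 fold changes of -0.14 to 0.05 in the count tables. NDUFAF3 and NDUFAF6 overlap other genes and had 0.266 and 0.154 times the level in the MED30 tables that they had in the count tables, so their values of -0.35 and 0.39 in MED30 may rest on other reads than those of 0.09 and -0.02 in the libraries labelled MYC. NDUFAF7 has no MED30 value here.

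Of the other complex I assembly factors, TMEM126B, part of the complex that assembles the membrane arm, rose from 5.14 and 5.77 CPM to 9.97 and 9.06 CPM in the libraries labelled MYC (log2 fold change 0.80 ± 0.18, adjusted p = 0.00241, edgeR) and in MED30 by 0.86 ± 0.15 (adjusted p = 0.00688, limma). Without control 1 the former call was lost (adjusted p = 0.0722). NUBPL, which delivers iron-sulfur clusters, fell by 0.29 and 0.28 in the same comparisons, and was not called with library size alone (-0.14 and -0.17) or without control 1 or control 2. In the line labelled MYC, edgeR did not call NUBPL on its 4 libraries alone (adjusted p = 0.068) or with low genes kept (adjusted p = 0.0581). Its call in the libraries labelled MYC was also lost with a replicate block (adjusted p = 0.122) and without Dox replicate 2 (adjusted p = 0.145), and, as these libraries share the fit, without MYC&MED30 Dox replicate 1 (adjusted p = 0.0867) or 2 (adjusted p = 0.0856). In all, 1 of 11 rose and 1 of 11 fell in the libraries labelled MYC, where 5.32% of all genes rose and 7.71% fell. The same counts were found in MED30, where 7.37% rose and 8.63% fell. In MYC&MED30, 0 of 11 were called by edgeR or DESeq2, where edgeR called 6.74% of all genes. By edgeR, 1 of 11 had an unadjusted p under 0.05 there, as did 3731 of all 19318 genes. For complexes II to IV, edgeR called 1 of 31 assembly factors higher and 3 lower in the line labelled MYC, and 1 higher and 1 lower of 31 in MYC&MED30, while limma called 1 higher and 2 lower of 32 in MED30. These are 12.9%, 6.45% and 9.38% of the factors, where 13.0%, 6.74% and 16.0% of all genes were called.

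COX10, the heme A farnesyltransferase needed for complex IV, was the factor that rose in all 3 comparisons. Its levels went from 91.2 and 89.2 CPM to 155 and 136 CPM in the libraries labelled MYC, from 126 and 92.6 CPM to 186 and 200 CPM in MYC&MED30, and from 92.0 and 89.5 CPM to 160 and 146 CPM in MED30. The log2 fold changes were 0.69 ± 0.10 (adjusted p = 1.74e-05, edgeR), 0.74 ± 0.11 (adjusted p = 4.19e-05, edgeR) and 0.75 ± 0.07 (adjusted p = 0.000304, limma). SURF1, another assembly factor of complex IV, fell by 0.31 in the line labelled MYC and by 0.26 in MED30, with adjusted p-values of 0.0204 (edgeR) and 0.0315 (limma), and was not called with library size alone (-0.16 in both), with a replicate block (adjusted p = 0.0804 and 0.0511) or without control 1 or control 2. The call of SURF1 in the libraries labelled MYC was also lost without Dox replicate 2 (adjusted p = 0.136) and without either MYC&MED30 library with Dox (adjusted p = 0.0557 for both). PET117, also an assembly factor of complex IV, fell by 0.89 ± 0.26 in MYC&MED30 (adjusted p = 0.0349, edgeR) and was not called by DESeq2. Its levels there were 7.36 and 14.0 CPM without and 4.82 and 4.33 CPM with Dox. The higher control is the shallow library, where the gene had 19 counts.

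The lines labelled MYC and MYC&MED30 differed more without Dox than either did with it. Of 65 subunit genes, 44 were called between the uninduced controls, 30 higher and 14 lower in MYC&MED30, where 60.2% of all genes were called, 30.0% higher and 30.2% lower. The median absolute log2 difference of the subunit genes was 0.54, beside median absolute log2 fold changes of 0.15 and 0.11 with Dox in these lines. Without MYC&MED30 control 1 the calls fell to 19. The ribosomal RNA gene RNA28SN5 was at 24900 and 26300 CPM in the controls labelled MYC and at 6900 and 7630 CPM in those of MYC&MED30, and its part in these differences was not tested. Any difference in the preparation of the libraries and the difference between the lines cannot be told apart here.

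NDUFA8, an accessory subunit of complex I, was at 12.2 and 13.3 CPM in the controls labelled MYC and at 47.6 and 52.2 CPM in those of MYC&MED30, a log2 difference of 1.93 ± 0.12 (adjusted p = 5.58e-14, edgeR), while its 2 libraries with Dox in each line stayed at 14.8 and 14.7 CPM and at 49.3 and 47.1 CPM. COX6C, a small subunit of complex IV, was at 20.0 and 19.8 CPM against 50.8 and 41.2 CPM. Lower in MYC&MED30 were COX8A, the common isoform of subunit VIII, at 16.1 and 14.5 CPM against 5.37 and 8.09 CPM, and COX6B2, at 27.5 and 24.1 CPM against 9.79 and 11.8 CPM. By complex, 16 genes were higher and 6 lower of 35 in complex I, 3 and 0 of 4 in complex II, 3 and 4 of 9 in complex III, and 8 and 4 of 17 in complex IV.

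**Figure D4:**
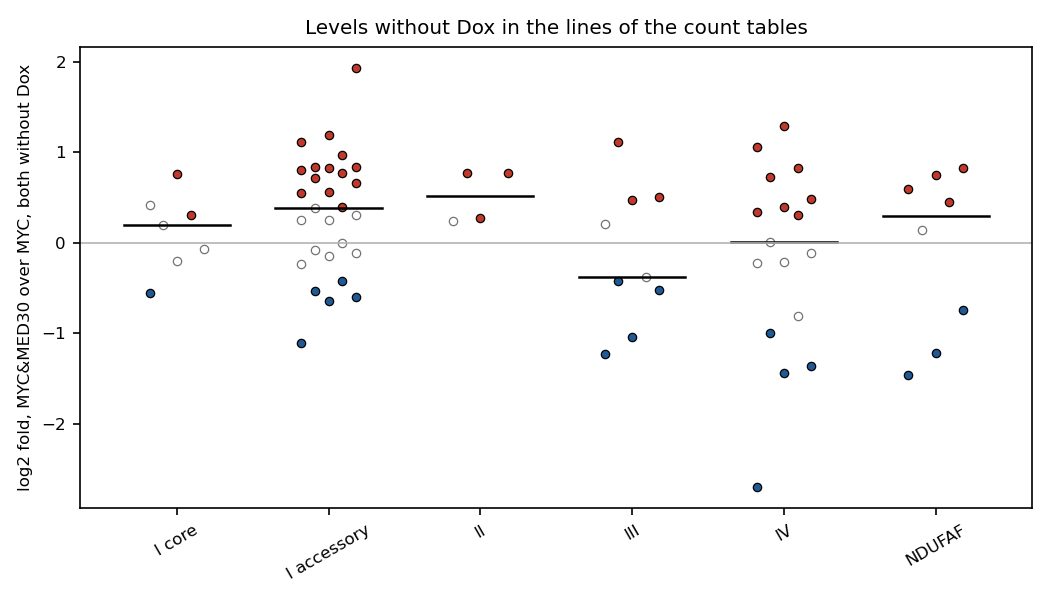
Log2 fold of the level in MYC&MED30 over that in the line labelled MYC, both without Dox, by complex and for the NDUFAF genes. Circles are genes, bars medians, filled circles passed an adjusted p under 0.05 (red higher, blue lower in MYC&MED30). NDUFA8 is the highest circle at 1.93 and COX4I2 the lowest at -2.70. COX4I2 is near the floor, with 9 counts in control 1 and 1 count in control 2 of MYC&MED30.

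Some members could not be compared across the tables. NDUFC2, an accessory subunit of complex I, was listed at 0 in all 8 count libraries and at 11.8 to 15.1 CPM in the MED30 values, and it overlaps NDUFC2-KCTD14 on the same strand. NDUFA6, another accessory subunit, was at 13.9 to 26.2 CPM in the count libraries and listed at 0 in MED30. COX7A2L, which joins complexes III and IV, had 0.2 times the level in the MED30 controls that it had in the controls labelled MYC. The part that overlapping gene models played in these values was not tested.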

How the data were processed

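PRO-seq was given for 12 libraries in 6 groups of 2, grouped by the sample labels. Per the methods, Trim Galore trimmed the reads, Bowtie2 aligned them to hg38 and featureCounts 2.0.3 assigned sense reads to genes (versions of the trimmer and aligner: not given in the sources used here). The authors' own test was DESeq2 2.11.40.8. Raw counts make up the 8 deposited tables for MYC and MYC&MED30. The deposited MED30 tables hold a score, that is, values scaled to nearly equal totals (6379143 to 6519353) and rounded to whole numbers. No spike-in was used, so changes are relative to other genes.

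The count test was the quasi-likelihood test of edgeR 4.0.16 in R 4.3.3 on the genes kept by filterByExpr, with TMM scaling and all 4 groups in 1 fit. For MED30 the test was limma 3.58.1 (trend) on log2(TMM-scaled value + 1) over genes with at least 10 in 2 libraries, which understates changes of low genes. The difference of responses was a contrast of the count fit. The contrast of the uninduced lines was added after the data were seen. Gene intervals are from GENCODE v44 (GRCh38), and lengths and promoter windows from RefSeq (GRCh38.p14), whose first listed window per gene was used. Not tested for low values were COX6A2, COX8C and NDUFC2 in the counts, and COX6A2, COX7B2, COX8C, NDUFA3 and NDUFA6 in MED30, besides UQCRBP1 in both.

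The members and gene lists were chosen with earlier results of these data known. Genes named were the called subunits, those of smallest p in each complex and list, core subunits, isoform pairs, NDUFAF genes and members on chromosome 8. Replicate deviations correlated at -0.28, -0.124 and -0.262 in the libraries labelled MYC, MYC&MED30 and MED30, so replicate numbers were not taken to pair samples. Alternatives were other scalings, filters and pseudocounts, DESeq2 1.42.0, fits of 4 libraries, replicate blocks and leaving out each library. The scripts were tested on simulated data. Values of some single genes are not reported here.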

Additional observations from a re-analysis of the deposited data

Results flagged for a closer look

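NDUFB10, an accessory subunit of complex I, was called by the test of the difference between the responses of 2 lines. The response in MYC&MED30 exceeded that in the libraries labelled MYC by 0.58 on the log2 scale (adjusted p = 0.0316, edgeR), with levels of 94.2 and 86.8 CPM without and 89.1 and 90.3 CPM with Dox in the former and 102 and 97.5 CPM without and 70.0 and 60.1 CPM with Dox in the latter. It was the 1 call among 65 subunit genes tested, where 1.07% of all 19318 genes were called. The call was lost under 7 of the alternatives. These were the replicate block and leaving out any replicate of the controls of both lines or of MYC&MED30 with Dox. The difference stayed between 0.54 and 0.69 in them. Control 1 and control 2 of MYC&MED30 held 2405 and 118 counts of the gene.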

How the results depend on the processing

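Over 1030 recomputed values of single genes under other settings, 914 kept their side of the threshold, 100 lost the call, 16 gained one and 0 changed sign while called. Direction was not compared for values called neither in the main fit nor under the other setting. The number of subunit genes called in MYC&MED30, 2 in the report, was 4 when edgeR was fitted on the 4 libraries of that line and 1 with DESeq2. In MED30 it was 2 without a filter on low values, instead of 5, as NDUFB10 (adjusted p = 0.0543), NDUFV2 (adjusted p = 0.13) and COX7A2 (adjusted p = 0.0556) did not pass, nor did TMEM126B, NUBPL, SURF1 and NDUFAF2 among the assembly factors. In the difference of responses it was 2 with upper quartile scaling and 2 with library size alone, instead of 1. The median of the subunit genes in the libraries labelled MYC was -0.0128 with upper quartile scaling and 0.0913 with library size alone. With library size alone it was 0.0816 in MED30 and -0.0391 in the difference. Here the scaling itself moved the median of all genes, as given in the report, and the cause of the other shifts was not tested.

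The replicate numbers pair no samples by the labels, and with the replicate block 7, 2 and 6 subunit genes were called in the libraries labelled MYC, MYC&MED30 and MED30, 0 in the difference and 41 between the uninduced controls. For 0 calls in the difference, edgeR without the block gave 8 of 65 subunit genes with an unadjusted p under 0.05. Over all genes this held for 2415 of 19318. With the block the NDUFAF median exceeded the subunit median in the difference by 0.104, against 0.166 without it. The crossed pairing, added after the data were seen, gave 10, 4, 7, 3 and 48 calls in the same order.

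Leaving out 1 library at a time, 3 to 11 subunit genes were called in the libraries labelled MYC, 0 to 8 in MYC&MED30, 2 to 26 in MED30, 0 to 3 in the difference and 19 to 51 between the uninduced controls. The count in the libraries labelled MYC was 3 without control 2, 4 without Dox replicate 2 and 11 without Dox replicate 1. In MYC&MED30 it was 0 without control 1, 1 without Dox replicate 2, 4 without control 2, and 6 or 8 without Dox replicate 1 or 2 of the libraries labelled MYC. In MED30 it was 2 without control 2, 26 without Dox replicate 1 and 14 without Dox replicate 2. For the median of the subunit genes, the lowest and highest values were -0.0816 and -0.0567 in the line labelled MYC, -0.0272 and 0.143 in MYC&MED30, -0.0554 and 0.0504 in MED30, and -0.0149 and 0.224 in the difference. For the NDUFAF median minus the subunit median they were -0.0835 and -0.0181, 0.0645 and 0.187, -0.252 and -0.108, and 0.126 and 0.273 in these comparisons. Where 1 library was left in a group, its spread was taken from the other groups. The shares called over all genes in these fits, and under the other settings above, are not given here. The counts are therefore not a result about the subunit genes apart from all genes. The depth of MYC&MED30 control 2 limits the responses of that line, and the depth behind the MED30 values is unknown.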

Other observations

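Lists of genes that work beside complexes I to IV are too short for their counts to be set apart from the shares called over all genes, which were 13.0% in the libraries labelled MYC, 6.74% in MYC&MED30 and 16.0% in MED30. Of the ATP synthase subunits, which use the proton gradient, edgeR called 0 of 14 in each of the count comparisons with Dox, and DESeq2 called 0. In both, 3 had an unadjusted p under 0.05 by edgeR, where 4950 and 3731 of all 19318 genes did. In MED30, 1 of 18, ATP5MC1, rose from 14.1 and 13.7 CPM to 17.2 and 22.7 CPM (log2 fold change 0.50, adjusted p = 0.0483, limma). ATP5MC1, ATP5PD, ATP5MF and ATP5MG were listed at 0 in the count libraries and so were tested in MED30 alone. Of a list of cytochrome c, the genes of ubiquinone synthesis and NDUFAB1, the mitochondrial acyl carrier protein that is also part of complex I and whose symbol does not meet the rule for members, 0 of 12 were called in these 3 comparisons by edgeR or limma, and 0 by DESeq2 in the count tables. An unadjusted p under 0.05 was found for 1, 2 and 2 of these 12 by edgeR or limma. Over all genes it was found for 4950 of 19318, 3731 of 19318 and 4715 of 14780.

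Of 12 regulators of mitochondrial biogenesis tested in the counts and 11 in MED30, POLRMT, the RNA polymerase of mitochondria, rose in all 3 comparisons, by 0.42, 0.78 and 0.45 on the log2 scale (adjusted p = 0.0164, 0.00148 and 0.0313, edgeR and limma). Its levels went from 21.4 and 21.0 CPM to 26.5 and 30.1 CPM in the libraries labelled MYC and from 9.60 and 11.0 CPM to 17.6 and 15.9 CPM in MYC&MED30. The call in the libraries labelled MYC was lost with DESeq2 (adjusted p = 0.0717) and without control 1 (adjusted p = 0.171), control 2 (adjusted p = 0.247) or Dox replicate 2 (adjusted p = 0.0971), and that in MYC&MED30 without its control 1 (adjusted p = 0.453). The call of POLRMT in MED30 was lost without control 1 (adjusted p = 0.129) or control 2 (adjusted p = 0.204) and with low genes kept in the test (adjusted p = 0.12). PPARGC1B, a coactivator of mitochondrial genes, rose in MYC&MED30 (0.48, adjusted p = 0.00542, edgeR), while TFAM, which packs mitochondrial DNA, had log2 fold changes of -0.16, -0.32 and -0.16 and was called in none of the 3. GABPB1, a subunit of GABP, fell in the libraries labelled MYC (-0.34, adjusted p = 0.0146, edgeR), and ESRRA, a nuclear receptor, in MED30 (-0.30, adjusted p = 0.0392, limma).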
